A study of Mus musculus with 6 samples.

Results

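Imprinted genes are transcribed mainly or only from the copy inherited from 1 parent. The 32 imprinted mouse genes described here were picked by symbol from the 54429 genes of a count table, and all 32 had a row in it. They belong to 15 imprinted domains. By textbook assignment 14 are expressed from the maternal and 18 from the paternal copy, and 25 code for proteins while 7 are long noncoding RNAs. In an imprinted domain, DNA methylation laid down in the egg or the sperm marks a control region, and that mark sets which parental copy of the neighbouring genes is active. Many imprinted genes regulate fetal and placental growth, with growth promoters such as Igf2 often expressed from the paternal copy and growth restrainers such as Cdkn1c from the maternal copy. Several are abundant in the embryo and decline after birth.

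RNA-seq was performed on primary aortic endothelial cells (EC) of adult wildtype C57BL/6 mice that had been transduced with a lentiviral vector, either one for overexpression of the homeodomain transcription factor Meis1 (Meis1-OE) or a control vector (YFP-CTRL). The comparison asked which transcripts Meis1 changes in EC outside the embryo. In both conditions YFP+CD31+VEC+ cells were sorted at 72 h, plated again and grown to confluency, so control cells also carried a vector and the reporter. The EC were a commercial primary culture. Each condition had 3 libraries from independent transductions, and nothing in the sources used here says that the cells came from separate mice, so p-values measure the spread between these cultures. Since C57BL/6 is an inbred strain and the counts sum both parental copies, allele use was not measured.

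Libraries held 34176642 to 47956605 counts. Meis1 had 135325 to 157828 counts in Meis1-OE and 39 to 85 in YFP-CTRL libraries, a log2 fold change of 11.07 (adjusted p = 6.92e-06 by the quasi-likelihood test of edgeR, with p-values adjusted by Benjamini-Hochberg here and below). Levels below are CPM, read counts scaled to library size with TMM factors, on which 3 counts, the limit of detection used, equal 0.0648 to 0.0883 CPM. Values listed by library follow the order of the letters A, B, C that the table gives within each condition. YFP-CTRL libraries varied more than Meis1-OE libraries. Their correlations across genes were 0.967 to 0.987, against 0.994 to 0.998 within Meis1-OE. A proliferation score, the mean log2(CPM + 1) of 15 cell cycle genes, was 4.25 (A), 5.18 (B) and 6.47 (C) for YFP-CTRL and was 6.44 to 6.50 in Meis1-OE. All 10 endothelial marker genes were detected, with summed levels of 3410 to 4340 CPM in Meis1-OE and 4390 to 6030 CPM in YFP-CTRL. Of these 10, Tek was lower and Vwf and Cldn5 were higher in Meis1-OE (log2 fold changes of -0.78, 3.12 and 1.81). Cdh5 (-0.70) and Kdr (-1.23) were also lower, without overlap between the groups, but did not pass (adjusted p = 0.0535 and 0.0504, edgeR). Of the 10 values 6 were positive and 4 negative, with Tie1, Eng, Erg and Emcn at 0.07 to 0.11 and Pecam1 at -0.11. Sums of 8 markers each for other cell types rested mainly on 1 gene per list. The smooth muscle sum (202 to 238 CPM in Meis1-OE and 95.7 to 240 CPM in YFP-CTRL) was mostly Smtn, while Myh11 stayed at or under 0.151 CPM and Tagln at or under 0.638 CPM. Acta2 was at 0.206, 2.18 and 19.9 CPM in YFP-CTRL and at most 3.33 CPM in Meis1-OE. Des was low but higher in Meis1-OE (0.451 against 0.031 CPM, log2 fold change 3.66, adjusted p = 0.015, edgeR). It had 20, 18 and 24 counts in Meis1-OE and 0, 2 and 2 in YFP-CTRL, where it was not detectable. The filter on low counts kept Des through its Meis1-OE libraries only, so the filter depended on the difference itself. The fibroblast sum (14.2 to 14.9 CPM and 17.9 to 51.9 CPM) was mostly Pdgfra, with Lum and Dpt at 0 and Pdgfrb at means of 2.49 and 1.70 CPM. The macrophage sum (69.8 to 106 CPM and 65.1 to 140 CPM) was mostly Cd68, with C1qa, C1qb, Tyrobp and Adgre1 at 0. Lyz2 and Csf1r were at or under 0.881 CPM, each with a log2 fold change of 1.63 that did not pass. Whether these differences contribute to the values of imprinted genes was not tested, and in bulk RNA fewer cells of a type and less RNA per cell cannot be told apart.

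Adult aortic EC expressed part of the imprinted repertoire. Of the 32 genes, 19 passed the filter on low counts and were tested, 4 were detected below that filter, and 9 had no more than 3 counts in any library. Of the 19 tested genes, 10 were above 10 CPM in YFP-CTRL EC and 9 were below 3 CPM. Per kilobase of exon, the most abundant in YFP-CTRL EC were Grb10, an adaptor that restrains insulin and IGF receptors, at 81.7 CPM per kb, and Gnas, which encodes the stimulatory G protein alpha subunit, at 78.9 CPM per kb. Mest, an alpha/beta hydrolase-fold gene, followed at 50.3 CPM per kb and Peg10, a retrotransposon-derived gene needed in placenta, at 22.4 CPM per kb. Gnas and Grb10 together made up 64.7 to 81.5% of all counts of the 32 genes. The whole group took 0.185 to 0.231% of each library.

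At the low end, the noncoding RNAs Airn and Meg3 and the coding genes Dlk1, Ndn and Magel2 had 0 counts in all 6 libraries. Mirg, Rtl1 and Zim1 had at most 1 count and Zdbf2 at most 2 counts. Of the 5 genes of the Dlk1/Meg3 domain on chromosome 12, only Rian was detected, at 3 to 9 counts in Meis1-OE and 1 to 13 counts in YFP-CTRL libraries. Nnat had at most 8 counts. Dlk1, a Notch-related ligand of embryonic tissues, was therefore not detectable in either condition at this depth, and the same held for its neighbour Meg3.

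After Meis1, Igf2 and Cdkn1c rose and Peg10 and Asb4 fell. H19 also passed upward, at the edge of the threshold, after the filter on low counts had kept it through its Meis1-OE libraries. These 5 genes were 26.3% of the 19 tested, while 6.87% of all 16065 genes tested passed the same threshold, an adjusted p under 0.05 from edgeR's quasi-likelihood test (4.14% higher and 2.73% lower). The 19 are not all imprinted genes, and H19 and Igf2r entered through the Meis1-OE libraries, so the count is a description. With at least 10 counts in every library, a filter that H19 and Igf2r do not pass, 2 rose and 2 fell of 17. Under that filter 473 rose and 368 fell of all 14366 genes tested. The median log2 fold change of the 19 was 0.06, against 0.01 for all genes tested, with 10 positive and 9 negative values. Both parental classes moved in both directions: of 8 tested maternally expressed genes 2 rose and 1 fell, and of 11 paternally expressed genes 1 rose and 1 fell.

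**Figure D1:**
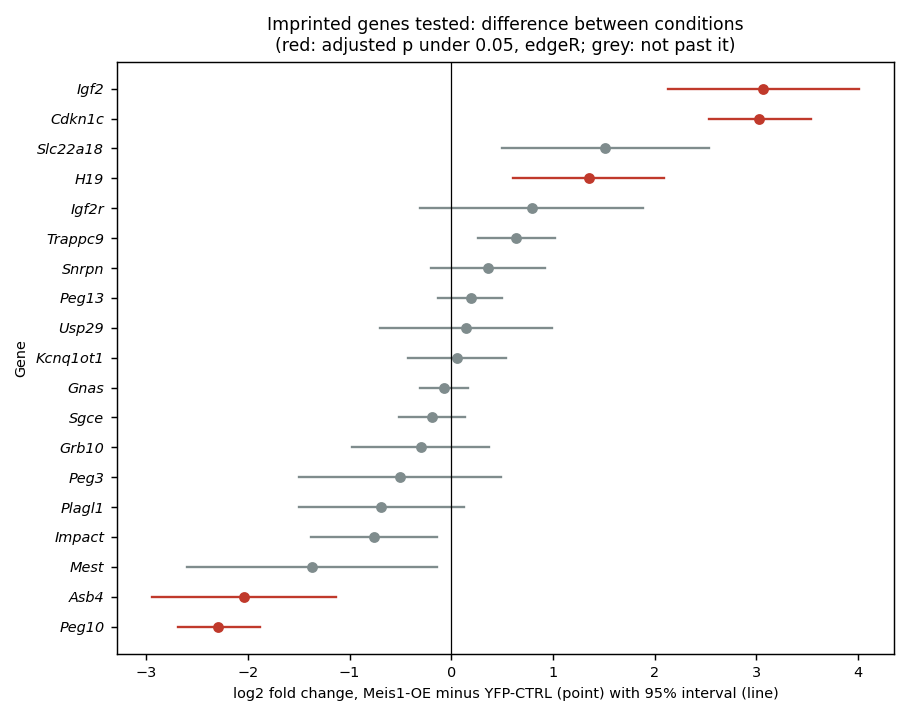
Log2 fold change of the 19 tested imprinted genes, Meis1-OE minus YFP-CTRL (x axis, points) with 95% intervals (lines), 1 gene per row and ordered by size; red marks an adjusted p under 0.05 from edgeR's quasi-likelihood test. Igf2 (3.07) and Cdkn1c (3.03) stand at one end and Peg10 (-2.29) and Asb4 (-2.04) at the other.

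The largest rises lay on distal chromosome 7, where the Igf2/H19 domain and the Kcnq1ot1 domain are neighbours (H19 at chr7:142575530-142578146 and Igf2 at chr7:142650768-142666816, 72.6 kb apart, GRCm38.p6). Igf2 encodes a fetal growth factor, and H19 is a noncoding RNA from the opposite parental copy. RefSeq lists 4 start windows for Igf2, each running from 250 bases before to 50 after a transcript start. The pair below is shown because a Meis core hexamer (TGACAG) or the hexamer bound by the imprint-protecting zinc finger protein ZFP57 (TGCCGC) occurs in them on either strand. Capitals mark the match, and both windows read along the minus strand on which Igf2 is transcribed.
Igf2 window at chr7:142666767-142667066, TGACAG in capitals: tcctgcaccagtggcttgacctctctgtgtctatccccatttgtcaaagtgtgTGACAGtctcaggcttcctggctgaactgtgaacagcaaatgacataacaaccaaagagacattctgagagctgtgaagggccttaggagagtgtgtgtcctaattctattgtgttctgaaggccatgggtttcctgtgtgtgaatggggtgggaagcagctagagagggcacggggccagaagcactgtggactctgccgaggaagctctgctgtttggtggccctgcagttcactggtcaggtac
Igf2 window at chr7:142661222-142661521, the TGCCGC match on the other strand in capitals: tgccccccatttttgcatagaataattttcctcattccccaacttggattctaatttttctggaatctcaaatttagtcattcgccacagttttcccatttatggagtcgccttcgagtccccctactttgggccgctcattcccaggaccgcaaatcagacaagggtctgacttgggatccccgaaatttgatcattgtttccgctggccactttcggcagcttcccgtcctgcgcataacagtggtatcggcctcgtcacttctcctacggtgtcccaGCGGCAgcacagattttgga
TGACAG was present in 19.2% of all 32851 RefSeq start windows of this length and in 3 of the 40 windows of imprinted genes, which belong to Igf2 and Snrpn. TGCCGC was in 11.6% of all windows and in 10 of those 40. Some windows of a gene overlap, and a pair of overlapping Mest windows holds the same matches. Windows were not matched for base content, so these shares are a description. The composite motif of Pbx and Meis, which contains TGACAG, was in 0.222% of all windows and in 0 of the 40. Windows were found for 24 of the 32 genes. None was found for Cdkn1c, Peg10 or H19, so the motifs were not looked for at those genes. The matches describe letters, not binding.

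Igf2 had 405, 1008 and 1128 counts in Meis1-OE, or 8.86, 22.2 and 24.4 CPM. In YFP-CTRL it had 68, 110 and 86 counts, or 2.0, 2.70 and 1.89 CPM. Every Meis1-OE library lay above every YFP-CTRL library, with library A the lowest of the Meis1-OE group. The means were 18.5 ± 8.40 CPM and 2.20 ± 0.436 CPM (SD, n = 3 each). The log2 fold change was 3.07 (standard error, SE, 0.40, 95% interval 2.13 to 4.01, adjusted p = 0.00933, edgeR's quasi-likelihood test), an 8.40-fold higher level. It passed under 13 of 13 alternative settings, at 2.82 to 3.41. The highest adjusted p of these was 0.0492, without Meis1-OE library B (edgeR), which is also at the edge of the threshold.

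Per kilobase of exon, H19 was less abundant than Igf2 in both conditions, with mean levels of 0.242 against 3.37 CPM per kb in Meis1-OE and 0.0936 against 0.401 CPM per kb in YFP-CTRL. It had 30, 22 and 27 counts in Meis1-OE and 7, 8 and 12 counts in YFP-CTRL libraries. The groups did not overlap, at 0.575 ± 0.0861 CPM against 0.222 ± 0.0367 CPM (SD, n = 3 each). Its log2 fold change was 1.35 (SE 0.32, adjusted p = 0.0492, edgeR's quasi-likelihood test), at the edge of the threshold. H19 was tested because its 3 Meis1-OE libraries passed the filter on low counts, against 1 of the YFP-CTRL libraries, so the filter depended on the difference itself, and with no filter the adjusted p was 0.0862 (edgeR). H19 kept its direction but passed under only 2 of 12 alternative settings, with adjusted p-values from 0.0286 to 0.205. The log2 ratio of Igf2 to H19 was 3.75, 5.52 and 5.38 in Meis1-OE and 3.28, 3.78 and 2.84 in YFP-CTRL libraries, which overlapped at their edges (difference 1.58, exact permutation p = 0.2, two-sided). With 3 libraries against 3 this test cannot go below 0.1.

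Igf2, H19 and Mest each host a microRNA, shown here with the seed (bases 2 to 8, the part that pairs with targets) in capitals, from RefSeq for GRCm38.p6.
mmu-miR-483-5p, in Igf2: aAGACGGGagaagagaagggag
mmu-miR-675-5p, in H19: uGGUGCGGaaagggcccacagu
mmu-miR-335-5p, in Mest: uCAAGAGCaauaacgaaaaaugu
The 3 seeds differ. The precursor rows Mir483 and Mir675 had 0 counts in every library and Mir335 at most 1 count. Libraries of total RNA of this kind hold few mature microRNAs, so these rows do not report on microRNA levels.

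Farther along distal chromosome 7, Cdkn1c (chr7:143458339-143461059, GRCm38.p6) lies 791.5 kb from Igf2. It encodes the cyclin-dependent kinase inhibitor p57Kip2 and is expressed from the maternal copy. Its counts were 215, 206 and 180 in Meis1-OE and 17, 23 and 24 in YFP-CTRL. Values within each condition were close, at 4.70, 4.54 and 3.89 CPM against 0.500, 0.564 and 0.528 CPM, and the conditions were far apart. The means were 4.38 ± 0.432 CPM and 0.531 ± 0.0317 CPM (SD, n = 3 each). The log2 fold change was 3.03 (SE 0.22, 95% interval 2.53 to 3.54, adjusted p = 0.00153, edgeR's quasi-likelihood test), or 8.20-fold, and it passed under 13 of 13 alternatives, at 2.98 to 3.18. With the proliferation score in the model the log2 fold change was 3.01 (adjusted p = 0.00668, edgeR).

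Kcnq1ot1, the paternally expressed antisense RNA that silences genes of this domain in cis, lies 161.8 kb from Cdkn1c. It was detected at 38.1, 27.9 and 23.3 CPM in Meis1-OE and 33.9, 25.5 and 26.5 CPM in YFP-CTRL libraries. The groups overlapped, and its log2 fold change was 0.06 (adjusted p = 0.890, edgeR). The log2 ratio of Cdkn1c to Kcnq1ot1 was -3.02, -2.62 and -2.59 in Meis1-OE and -6.08, -5.50 and -5.65 in YFP-CTRL libraries, a difference of 3.0 with no overlap (exact permutation p = 0.1, two-sided, adjusted over 4 ratios 0.133). Kcnq1ot1 lies within Kcnq1 on the opposite strand, and no source used here says that reads were assigned by strand, so reads of the pair may not be separated.

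The next maternally expressed genes were low. Slc22a18, a transporter gene 12.7 kb from Cdkn1c, had 59, 94 and 91 counts in Meis1-OE and 14, 16 and 47 counts in YFP-CTRL libraries. Its groups did not overlap, at 1.78 ± 0.423 CPM against 0.613 ± 0.365 CPM (SD, n = 3 each), and its log2 fold change of 1.51 (SE 0.43) did not pass (adjusted p = 0.0818, edgeR). YFP-CTRL library C was the highest control, and without it the value was 2.12 (adjusted p = 0.00565, edgeR), while adding the proliferation score to the model gave 0.90 (adjusted p = 0.284, edgeR). In DESeq2 its adjusted p was 0.0154. Phlda2, which limits placental growth, had 7, 6 and 9 counts in Meis1-OE and 4, 0 and 1 in YFP-CTRL libraries and was not tested.

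**Figure D2:**
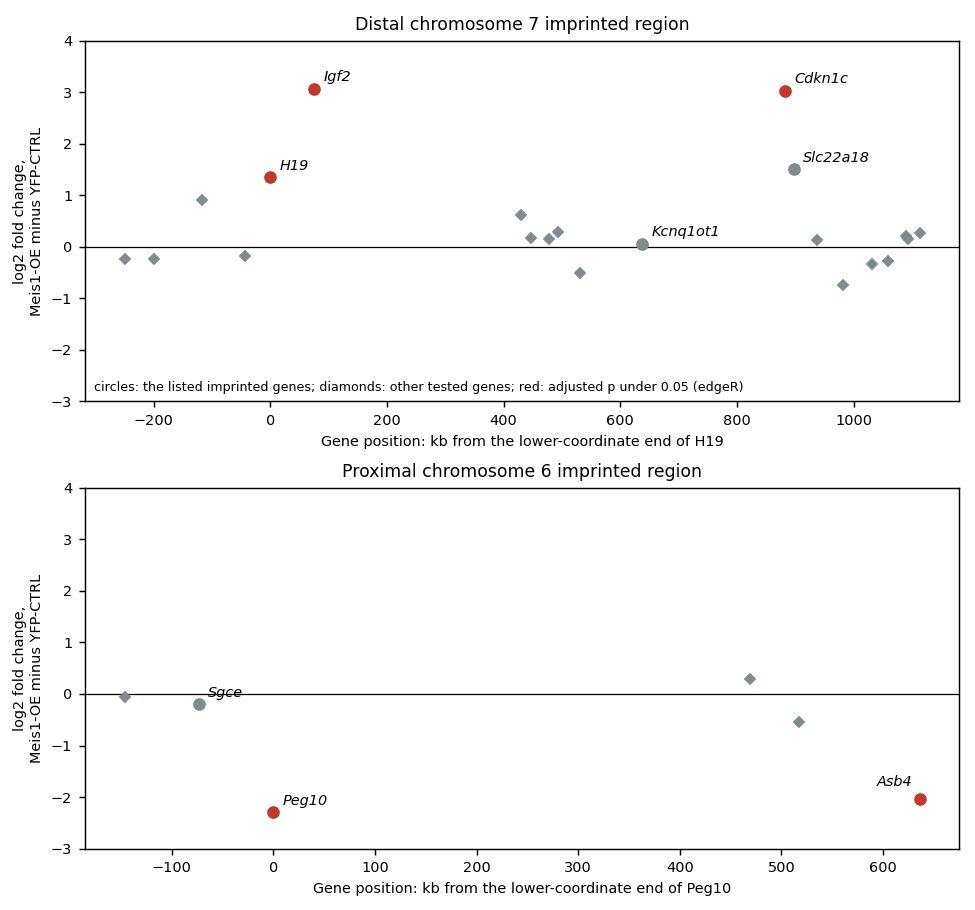
Log2 fold change (y axis, Meis1-OE minus YFP-CTRL) of every tested gene against its position in kb from H19 (upper panel, distal chromosome 7) or Peg10 (lower panel, proximal chromosome 6); circles are genes among the 32, diamonds the other tested genes, some of them also imprinted, and red marks an adjusted p under 0.05 from edgeR. The diamonds lie between -0.74 and 0.90 in the upper panel and between -0.54 and 0.29 in the lower.

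Neighbours outside the 32 were compared in the same fit. Among the 16 tested genes from 250 kb before H19 to 250 kb after Phlda2, 6 of which are known as imprinted in some tissues (Tspan32, Cd81, Tssc4, Kcnq1, Nap1l4 and Osbpl5), 0 passed the threshold in edgeR or DESeq2 and 2 had an unadjusted p under 0.05. Their log2 fold changes ran from -0.74 for Cars to 0.90 for Lsp1. On proximal chromosome 6, 0 of 3 tested neighbours, Casd1, Pon3 and Pon2, which are also listed as imprinted, passed in either program and 0 had an unadjusted p under 0.05, with values from -0.54 for Pon2 to 0.29 for Pon3. Of all 16065 genes tested, 6.87% passed in edgeR and 4205 had an unadjusted p under 0.05. With so few neighbours, 0 passing is near the share of all genes.

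On proximal chromosome 6, Peg10 (chr6:4747306-4760517) and Sgce (chr6:4674350-4747204, GRCm38.p6) start 101 bp apart on opposite strands, and both are expressed from the paternal copy. Peg10 fell. Its counts were 1291, 1329 and 1582 in Meis1-OE and 4077, 7250 and 6792 in YFP-CTRL. All Meis1-OE libraries (28.2, 29.3 and 34.2 CPM) lay below all YFP-CTRL libraries (120, 178 and 149 CPM). The means were 30.6 ± 3.16 CPM and 149 ± 28.8 CPM (SD, n = 3 each). The log2 fold change was -2.29 (SE 0.17, 95% interval -2.69 to -1.88, adjusted p = 0.00177, edgeR's quasi-likelihood test), a 4.88-fold lower level, and it passed under 13 of 13 alternatives, at -2.44 to -2.13.

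Sgce, which encodes epsilon-sarcoglycan, was at 39.3, 42.5 and 45.6 CPM in Meis1-OE and 43.2, 56.0 and 46.3 CPM in YFP-CTRL libraries. The groups overlapped and the log2 fold change was -0.19 (95% interval -0.51 to 0.13, adjusted p = 0.408, edgeR). The log2 ratio of Peg10 to Sgce within each library was -0.48, -0.54 and -0.42 in Meis1-OE and 1.47, 1.67 and 1.69 in YFP-CTRL. Per kilobase of exon, Peg10 had a mean level of 4.59 and Sgce of 13.8 CPM per kb in Meis1-OE, against 22.4 and 15.7 CPM per kb in YFP-CTRL. The ratio did not overlap between conditions and differed by -2.09 (exact permutation p = 0.1, two-sided, adjusted over 4 ratios 0.133).

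Asb4, a maternally expressed gene for a substrate adaptor of ubiquitin ligases, lies 622.9 kb beyond Peg10 (chr6:5383386-5433022, GRCm38.p6). The RefSeq window at its outermost start is shown for comparison with those of Igf2, and neither hexamer occurs in it.
Asb4 window at chr6:5383136-5383435, plus strand: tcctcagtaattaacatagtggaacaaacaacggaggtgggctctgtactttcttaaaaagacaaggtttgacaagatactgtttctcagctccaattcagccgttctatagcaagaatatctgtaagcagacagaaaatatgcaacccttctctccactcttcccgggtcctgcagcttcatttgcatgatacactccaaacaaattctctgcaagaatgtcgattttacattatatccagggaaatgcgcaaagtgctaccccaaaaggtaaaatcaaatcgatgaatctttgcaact
Asb4 had 12, 24 and 22 counts in Meis1-OE and 38, 77 and 100 counts in YFP-CTRL libraries. The groups did not overlap, at 0.422 ± 0.141 CPM against 1.74 ± 0.557 CPM (SD, n = 3 each). The log2 fold change was -2.04 (SE 0.39, 95% interval -2.94 to -1.13, adjusted p = 0.0275, edgeR's quasi-likelihood test), 4.11-fold lower. The call was lost when any single Meis1-OE library was left out (adjusted p = 0.0900 to 0.123, edgeR), and also when library B of YFP-CTRL was (0.106). Ppp1r9a, which encodes neurabin and lies between Peg10 and Asb4, had at most 6 counts in Meis1-OE and 4 to 19 in YFP-CTRL libraries and was not tested.

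**Figure D3:**
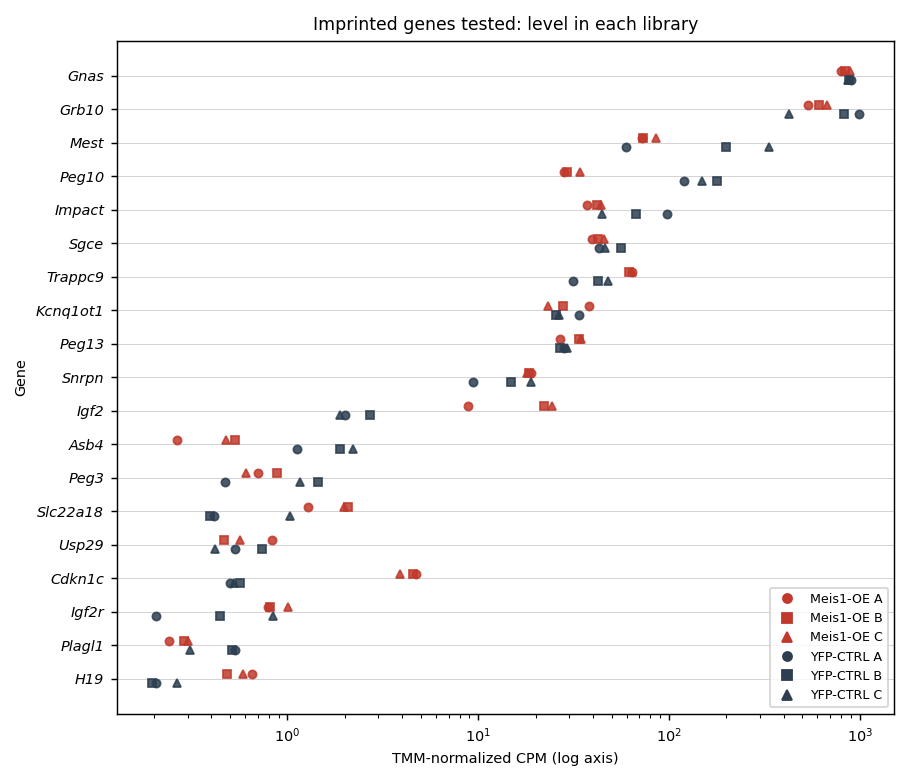
Level of each tested imprinted gene in every library (x axis, CPM on a log scale), 1 gene per row; each point is 1 library, red for Meis1-OE and dark for YFP-CTRL, and its shape gives the library letter. Igf2, Cdkn1c and H19 are higher and Peg10 and Asb4 lower in all Meis1-OE libraries, while Mest and Grb10 spread widely within YFP-CTRL.

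Beyond these 5, the conditions did not overlap for 4 further imprinted genes that did not pass the threshold, Trappc9 and Slc22a18 (higher) and Plagl1 and Impact (lower). That makes 9 of the 19 tested, while 33.1% of all genes tested had no overlap. Trappc9, a vesicle trafficking gene on chromosome 15, was at 64.2, 61.9 and 63.8 CPM in Meis1-OE and 31.5, 42.6 and 48.0 CPM in YFP-CTRL libraries, with counts of 2936, 2811 and 2953 against 1069, 1737 and 2179. Its log2 fold change was 0.64 (SE 0.16, adjusted p = 0.0626, edgeR), and 0.76 without YFP-CTRL library C (adjusted p = 0.0111, edgeR). Trappc9 also passed on library totals (0.79, adjusted p = 0.0266, edgeR) and in DESeq2 (0.62, adjusted p = 0.0243), and was at 0.35 with the proliferation score in the model (adjusted p = 0.159, edgeR). Peg13, the paternally expressed noncoding RNA inside Trappc9, overlapped between conditions at 31.9 ± 4.22 CPM against 28.0 ± 1.21 CPM (SD, n = 3 each, log2 fold change 0.19). The log2 ratio of Trappc9 to Peg13 was 0.87 to 1.25 in Meis1-OE and 0.16 to 0.72 in YFP-CTRL (exact permutation p = 0.1, two-sided, adjusted over 4 ratios 0.133). As with Kcnq1ot1 and Kcnq1, reads of this pair may not be separated.

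Impact, which restrains the amino acid sensor kinase Gcn2, had 1710, 1904 and 2051 counts in Meis1-OE and 3318, 2753 and 2024 in YFP-CTRL libraries. On the CPM scale this was 37.4, 41.9 and 44.3 against 97.7, 67.5 and 44.5, so YFP-CTRL library C lay just above the highest Meis1-OE library. Its log2 fold change was -0.76 (SE 0.26, adjusted p = 0.128, edgeR), and -1.01 without that library (adjusted p = 0.00452, edgeR). Leaving out YFP-CTRL library A instead gave -0.46, and putting the proliferation score in the model gave -0.10 (adjusted p = 0.215 and 0.731, edgeR). Plagl1, a zinc finger transcription factor, was near the detection limit with 11, 13 and 14 counts in Meis1-OE and 18, 21 and 14 in YFP-CTRL libraries, at 0.276 ± 0.0320 CPM and 0.451 ± 0.124 CPM (SD, n = 3 each). Its log2 fold change was -0.69 (SE 0.35, adjusted p = 0.255, edgeR), and -0.25 with the proliferation score in the model (adjusted p = 0.813).

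For several genes the spread lay within YFP-CTRL, whose libraries also differed in the proliferation score. Mest was at 59.5, 199 and 336 CPM in YFP-CTRL, against 71.8, 72.9 and 85.3 CPM in Meis1-OE. YFP-CTRL library A was thus below every Meis1-OE library, and libraries B and C were far above. The log2 fold change was -1.37 (SE 0.53, adjusted p = 0.155, edgeR). Leaving out that control gave -1.81 (adjusted p = 0.0120, edgeR), and the values were -2.35 with the proliferation score in the model (adjusted p = 0.00732, edgeR) and -1.39 in DESeq2 (adjusted p = 0.0325). Without YFP-CTRL library C, the highest control, Mest was at -0.78 (adjusted p = 0.241, edgeR).

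Grb10 ran the other way across the same controls, at 992, 828 and 426 CPM in YFP-CTRL, against 536, 615 and 670 CPM in Meis1-OE. Its log2 fold change was -0.30 (adjusted p = 0.542, edgeR), and it changed sign to 0.43 with the score as a covariate (adjusted p = 0.223). Without YFP-CTRL library A it was -0.07 (adjusted p = 0.902), and without library C it was -0.59 and passed (adjusted p = 0.0127, edgeR). Snrpn, which encodes a spliceosomal protein and overlaps Snhg14, was at 9.45, 14.8 and 18.9 CPM in YFP-CTRL and 18.5 ± 0.479 CPM in Meis1-OE (SD, n = 3, log2 fold change 0.36, adjusted p = 0.379, edgeR, and -0.09 with the score in the model). Igf2r, the receptor that clears IGF2, had 7, 18 and 38 counts in YFP-CTRL and 36, 37 and 47 in Meis1-OE libraries (log2 fold change 0.79, adjusted p = 0.325, edgeR). For Igf2r the score in the model gave 0.01 (adjusted p = 0.992), and the value was 0.43 without YFP-CTRL library A and 1.39 without library C (adjusted p = 0.494 and 0.0505, edgeR). In 11 of the 19 tested genes the ratio of highest to lowest library was wider in YFP-CTRL than in Meis1-OE. The same count over all genes was not made, and YFP-CTRL libraries also varied more across all genes. The part of proliferation in these values was not tested. Scores were 6.44 to 6.50 in Meis1-OE, and of the controls only library C (6.47) lay there. The covariate fits, here and above, took their slope mainly from YFP-CTRL and cannot separate proliferation from condition.

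**Figure D4:**
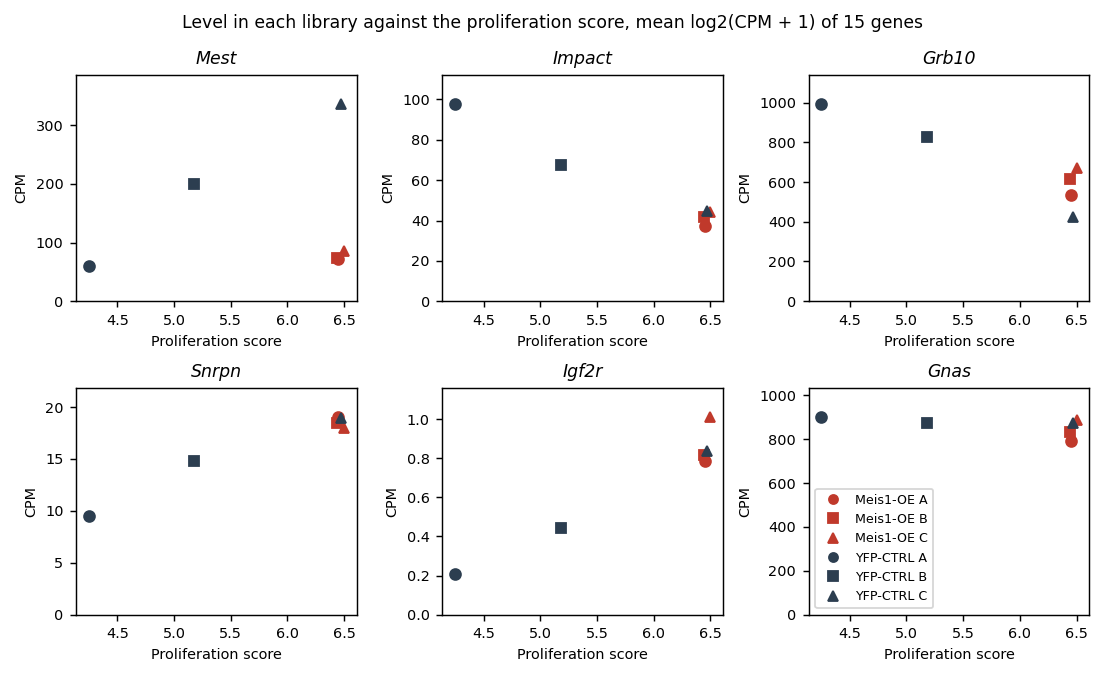
Level of Mest, Impact, Grb10, Snrpn, Igf2r and Gnas (y axes, CPM from 0) against the proliferation score of each library (x axes, mean log2(CPM + 1) of 15 cell cycle genes); each point is 1 library, red for Meis1-OE and dark for YFP-CTRL. YFP-CTRL libraries extend from 4.25 to 6.47 on the x axis, whereas the 3 Meis1-OE libraries sit between 6.44 and 6.50.

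Gnas was the steadiest of the abundant genes, at 793, 835 and 890 CPM in Meis1-OE and 900, 876 and 873 CPM in YFP-CTRL (log2 fold change -0.07, 95% interval -0.31 to 0.16, adjusted p = 0.682, edgeR). On library totals without TMM its sign turned, at 0.07. Peg3, a zinc finger gene, and Usp29, a deubiquitinase gene that starts 96 bp away, were both low, with log2 fold changes of -0.50 (adjusted p = 0.490) and 0.14 (adjusted p = 0.841, edgeR for both). Over the alternatives the value of Peg3 ran from -0.97 to -0.18. Peg3 was at 0.729 ± 0.141 CPM in Meis1-OE against 1.03 ± 0.502 CPM in YFP-CTRL, and Usp29 at 0.619 ± 0.191 CPM against 0.561 ± 0.161 CPM (SD, n = 3 each).

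Igf2 and 2 further imprinted genes, Igf2r and Grb10, act in IGF signalling, so the other genes of that pathway were read from the same fit. Of 27 genes listed, 18 were tested, 2 rose and 2 fell (22.2%, against 6.87% of all genes tested), with a median log2 fold change of 0.08. The list was chosen with earlier results of these data known, so this share is a description. Igfbp3, a binding protein that holds IGFs outside the cell, rose from 168, 335 and 447 CPM in YFP-CTRL to 1350, 1360 and 1550 CPM in Meis1-OE libraries (log2 fold change 2.17, SE 0.33, adjusted p = 0.0135, edgeR). Igfbp4, another binding protein, fell from 1630 ± 36.7 CPM to 709 ± 58.3 CPM (SD, n = 3 each; log2 fold change -1.20, SE 0.11, adjusted p = 0.00304, edgeR). Irs1, the docking protein of the insulin and IGF1 receptors, rose from 4.92, 2.23 and 3.50 CPM to 11.5, 17.4 and 16.0 CPM (log2 fold change 2.08, SE 0.31, adjusted p = 0.0123, edgeR). Igfbp5 fell at the very edge of the threshold, with 7, 77 and 68 counts in Meis1-OE and 215, 438 and 321 in YFP-CTRL libraries (log2 fold change -2.86, SE 0.67, adjusted p = 0.05 after rounding, edgeR). The receptors Igf1r and Insr had log2 fold changes of 0.45 and -0.28 (adjusted p = 0.337 and 0.193, edgeR). Without Meis1-OE library B or C, neither Igfbp3 nor Irs1 passed in edgeR.

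**Figure D5:**
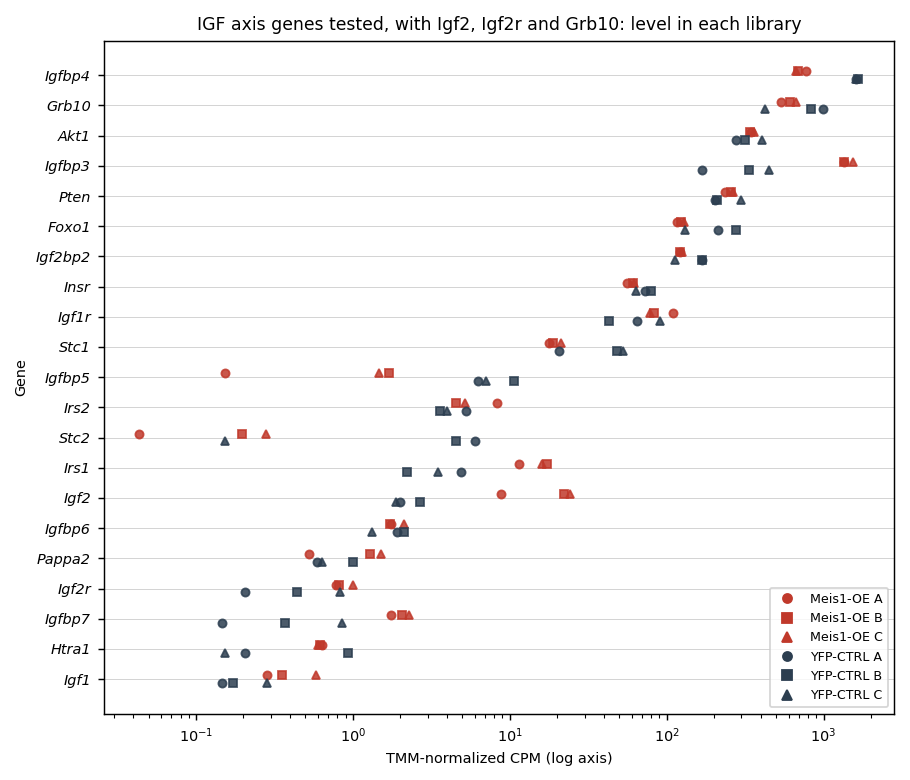
Level in every library (x axis, CPM on a log scale) of the 18 tested genes of IGF signalling with Igf2, Igf2r and Grb10, 1 gene per row; each point is 1 library, red for Meis1-OE and dark for YFP-CTRL. Igf2, Igfbp3 and Irs1 are higher and Igfbp4 and Igfbp5 lower in all Meis1-OE libraries.

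Genes for factors that keep imprints, and some for removal of DNA methylation (Tet1, Tet2, Tet3 and Tdg), were compared as well, at the RNA level. This list too was chosen with earlier results of these data known. Of 36 listed genes, among them DNA methyltransferases, ZFP57, TRIM28 and cohesin subunits, 33 were tested, 0 rose in edgeR (2 at an unadjusted p under 0.05, 1 in DESeq2) and 1 fell (3.03%, against 6.87% of all genes tested). The 1 that fell was Tdg, a DNA glycosylase of active demethylation, at 19.9 ± 0.455 CPM against 36.5 ± 5.78 CPM (SD, n = 3 each; log2 fold change -0.87, SE 0.14, adjusted p = 0.0175, edgeR). Tdg lost the call when a single Meis1-OE library, or library B of YFP-CTRL, was left out. Dnmt1, the maintenance methyltransferase, was at 67.3, 76.2 and 278 CPM in YFP-CTRL, against 237 to 246 CPM in Meis1-OE, and Uhrf1, its partner at hemimethylated DNA, at 23.1, 27.3 and 101 CPM against 104 to 114 CPM. Both were high in YFP-CTRL library C, where the proliferation score was high. Methylation itself was not measured.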

How the data were processed

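The authors deposited estimated counts per gene without normalization, in 1 table of 54429 genes by symbol. An estimated count need not be whole. The submitters' processing notes name build mm10. The aligner, the counting tool and strand use are not given in the sources used here. The study's methods name ribodepletion and DESeq2. Counts were rounded to whole numbers. Of the tested imprinted genes, 5 had counts that were not whole (tolerance 0.01). All 6 columns were used, assigned to conditions by name, and their letters are not tied to the replicate numbers of the labels.

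Counts were tested with edgeR 4.0.16 (TMM, filterByExpr with a minimum count of 10, 0.226 CPM here, quasi-likelihood test, Benjamini-Hochberg adjustment over 16065 genes, threshold 0.05) in R 4.3.3. The biological coefficient of variation was 0.233. DESeq2 1.42.0, other scalings and filters, a replicate block, the proliferation score as a covariate and each library left out were alternatives. Ratios within libraries were compared by exact permutation in scipy 1.17.1. Values at or under 3 counts were called not detectable, and counting limits cover counting error only. On simulated data for this comparison (16065 genes), edgeR recovered 29.6% of 98 genes changed 2-fold and 86.6% of 97 changed 4-fold, so 2-fold changes of imprinted genes could be missed. DESeq2 recovered 52 of 100 and 94 of 100. Among unchanged genes edgeR called 12 and DESeq2 44, so a pass in DESeq2 alone is the less certain. The simulation gave each gene the same spread in both conditions, whereas YFP-CTRL libraries varied more, so these rates may not hold here.

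The members and the gene lists (48 other imprinted genes, 36 of imprint maintenance, 27 of IGF signalling, and proliferation and cell type markers) were chosen with earlier results of these data known. Members passing the threshold or not overlapping between conditions were named with full values, the other tested members by level or counts and fold change. Of the other lists, genes passing the threshold were named, but not every gene without overlap. Positions and start windows came from RefSeq for GRCm38.p6, and exon lengths by symbol from an NCBIM37 annotation for 30 of 32 genes. Figures were drawn with matplotlib 3.10.9.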

Additional observations from a re-analysis of the deposited data

How the results depend on the processing

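Igf2, Cdkn1c and Peg10 kept direction and threshold under all 13 alternatives run, and H19 and Asb4 kept direction but not always the call. Counts over imprinted genes ran from 2 to 5 higher and from 1 to 4 lower when each library was left out, against 3 and 2 with all libraries, the most without YFP-CTRL library C. Over all genes the same step gave 115 to 2717 higher and 16 to 2498 lower, against 665 and 438 (115 and 16 without Meis1-OE library B, 2717 and 2498 without YFP-CTRL library C). Library totals gave 1048 higher and 179 lower, with the median of all genes at 0.15 on the log2 scale instead of 0.01 and 85.4% of calls higher instead of 60.3%. DESeq2 gave 1124 and 1115 (50.2% higher), and the proliferation covariate 410 higher. For the other lists, DESeq2 called 5 higher and 1 lower of the other imprinted genes, 1 higher of imprint maintenance and 5 lower of IGF signalling. The covariate called 1 of the other imprinted genes lower, and library totals or at least 10 counts in every library left 1 of IGF signalling lower. With a library left out, the other imprinted genes had 1 to 7 higher and 0 to 4 lower, imprint maintenance 0 to 9 and 0 to 4, and IGF signalling 0 to 4 and 1 to 6. The sign turned, always without a call, for Grb10 (0.43) and Snrpn (-0.09) with the covariate, Gnas (0.07) on library totals, Kcnq1ot1 without Meis1-OE A (-0.16) or YFP-CTRL B (-0.01; -0.16 to 0.21 over the libraries left out), and Usp29 without Meis1-OE A (-0.13) or YFP-CTRL C (-0.05; -0.13 to 0.40). The cause was not tested.

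The column letters could not be shown to pair the libraries. Same-letter deviations correlated at 0.24, 0.19 and 0.08 for A, B and C, and Meis1-OE library C correlated better with YFP-CTRL library B (0.25). With the letter as a replicate block, 544 genes were higher and 189 lower (74.2% higher), with 2 imprinted genes in each direction and H19 at an adjusted p of 0.0851 (edgeR). At this depth 9 imprinted genes were not detectable and 4 were too low to test. For low genes, counting error and spread between libraries were not separated.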

Other observations

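A further 48 imprinted genes outside the 32 were read from the same fit. Of these, 28 were tested, 18 had no more than 3 counts in any library, 3 rose and 0 fell in edgeR (3 lower at an unadjusted p under 0.05, 1 lower in DESeq2), and the median log2 fold change was 0.09. The 3 genes were 10.7% of those tested, against 6.87% of all genes tested. As with the other lists, earlier results of these data were known when the genes were chosen, so the share is a description. Herc3, a ubiquitin ligase gene, had 1756, 2170 and 1778 counts in Meis1-OE and 232, 264 and 389 in YFP-CTRL libraries. It was at 41.5 ± 5.43 CPM against 7.29 ± 1.12 CPM (SD, n = 3 each; log2 fold change 2.51, standard error 0.17, adjusted p = 0.00122, edgeR). Ddc, which encodes aromatic amino acid decarboxylase and neighbours Grb10, had 106, 183 and 187 counts against 10, 31 and 28 (log2 fold change 2.62, standard error 0.40, adjusted p = 0.0136, edgeR). Atp10a, a phospholipid flippase gene, was at 70.6 ± 4.98 CPM against 23.8 ± 7.32 CPM (SD, n = 3 each; log2 fold change 1.57, standard error 0.23, adjusted p = 0.0120, edgeR). The groups did not overlap for any of these 3 genes. Imprinting of Herc3, Ddc and Atp10a differs between tissues, and their allele use in EC was not measured.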
